A study of Macaca mulatta with 33 samples.

Results

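Corpora lutea of rhesus macaques that received trilostane (TRL) together with human chorionic gonadotropin (hCG) for 6 days were compared with corpora lutea of macaques that received hCG alone for 6 days. Both groups were collected on day 15 of the luteal phase, and they make up 9 of the 33 arrays of the series. The members were chosen by their labels: 4 arrays carry hCG and TRL, and 5 carry hCG alone. Among the hCG arrays, replicates 3 and 5 bear the same sample number and were averaged, so the comparison rests on 4 samples in each group, and 32 samples entered the fit.

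The corpus luteum is the gland that forms from the ovulated follicle and secretes progesterone. Chorionic gonadotropin, made by the early embryo's trophoblast, acts through the luteinizing hormone receptor and keeps the gland alive and secreting beyond its normal span. Pregnenolone is turned into progesterone by 3-beta-hydroxysteroid dehydrogenase, which trilostane blocks, so the drug lowers progesterone without removing the gonadotropin. The hormone acts back on the gland through the progesterone receptor, PGR, and the arrays bear on which luteal messages differ when progesterone synthesis is blocked.

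All samples came from adult, cycling females, and RNA of dissected luteal tissue was hybridised to Affymetrix Rhesus Genome arrays. Doses of hCG increased with time to imitate early pregnancy, and both day 15 groups received it. The other 5 groups, used to join the array sets and for levels beside the comparison, were day 15 tissue given hCG, TRL and the synthetic progestin R5020 (4 arrays), day 10 tissue given hCG, TRL and R5020 (4 arrays), day 10 tissue given hCG and TRL (4 arrays), day 10 tissue given hCG alone (4 arrays), and untreated day 10 tissue (8 arrays). Day 10 tissue with hCG had received it for 1 day. The labels do not say whether each array came from a separate animal, so the p-values cover only the spread among the samples at hand.

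The array names place the arrays in 3 sets, and the groups compared share only set 3. The TRL group has 3 arrays in set 2 and 1 in set 3, whereas the hCG group has 4 arrays in set 1 and 1 in set 3. Set was therefore a term of the fit, joined mainly by the untreated arrays, 4 in set 2 and 4 in set 1. Titles mark hCG replicates 1 to 4 as reanalysis and no TRL array, and among the untreated arrays the mark is on all of set 1 and none of set 2, so there it runs with the array set. Within set 3, and in the day 10 difference between hCG + TRL and hCG, the mark and the treatment cannot be told apart. Among 528 array pairs, 2 were far more alike than the rest: a typical pair had log2 differences with an SD of 0.476 (the median), and the next closest had 0.318. TRL replicate 4 and replicate 4 of the TRL and R5020 group, which belong to different groups, reached 0.192 (r = 0.9937, across probe sets). For hCG replicates 3 and 5 it was 0.201 (r = 0.9932). Probe sets are not independent of each other, so these correlations are descriptions. The replicate 4 arrays also share a sample number, 5, and lie in set 3, though sample numbers recur between other groups as well. The labels do not say whether the same tissue was measured under both labels, and which label holds was not tested. TRL replicate 4 may thus not be TRL tissue without R5020. Values without the near-identical replicate 4 arrays are given beside the genes and the immune lists. In that fit the mean of hCG replicates 3 and 5 is the only sample left with a share in set 3, so the set term takes it up and it no longer informs the difference either. Levels below are log2 intensities with the array set effect removed, on the scale of set 1.

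Luteal markers were looked at in the labelled tissue. All 9 luteal markers measured, among them STAR, INHA, FDX1 and NR5A1, lay above the low value line of 6.19 in every sample of both groups. Their mean level was 11.92 to 12.23 in the TRL samples, against 12.29 to 12.41 in the hCG samples. All 13 endothelial and all 10 pericyte and smooth muscle markers also lay above the line in every sample. Lying above it therefore does not single out luteal cells. LHCGR, the receptor that hCG binds, and CYP11A1, the side-chain cleavage enzyme, had no kept probe set with 1 gene symbol and are not reported.

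No probe set passed the comparison. With limma and a Benjamini-Hochberg adjustment over 28911 probe sets, 0 had an adjusted p under 0.05 (0%), and the lowest adjusted p was 0.155. At an unadjusted p under 0.05 there were 1697 (5.87%), 678 higher and 1019 lower with TRL, where 1446 would be given by the threshold alone. With the array sets joined as fitted, and each probe set taken singly, the 95% interval lay wholly within 1 log2 unit of 0 for 24939 probe sets (86.3%). The median half-width was 0.391. These intervals do not cover doubt about the join: with the untreated arrays left out the median SE was 0.45, against 0.19 with them. Estimated differences over 1 log2 unit in size were seen for 332 probe sets, 190 higher and 142 lower. Where a gene had several kept probe sets, the brightest on average stood for it. Of 10507 genes, 211 were higher (2.01%) and 472 lower (4.49%) at an unadjusted p under 0.05, the median difference was -0.05, and 38.4% of the genes lay above 0. The samples of the groups did not overlap for 1032 genes (9.82%). Overlap was judged here and below after the fitted array set effect was subtracted, so it depends on the join of the sets. Whole arrays of the TRL group differed from hCG arrays by a median SD of 0.451, close to the median within the TRL group (0.409) and within the hCG group (0.458). All counts below, those of genes above 0 included, are read against these shares.

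**Figure D1:**
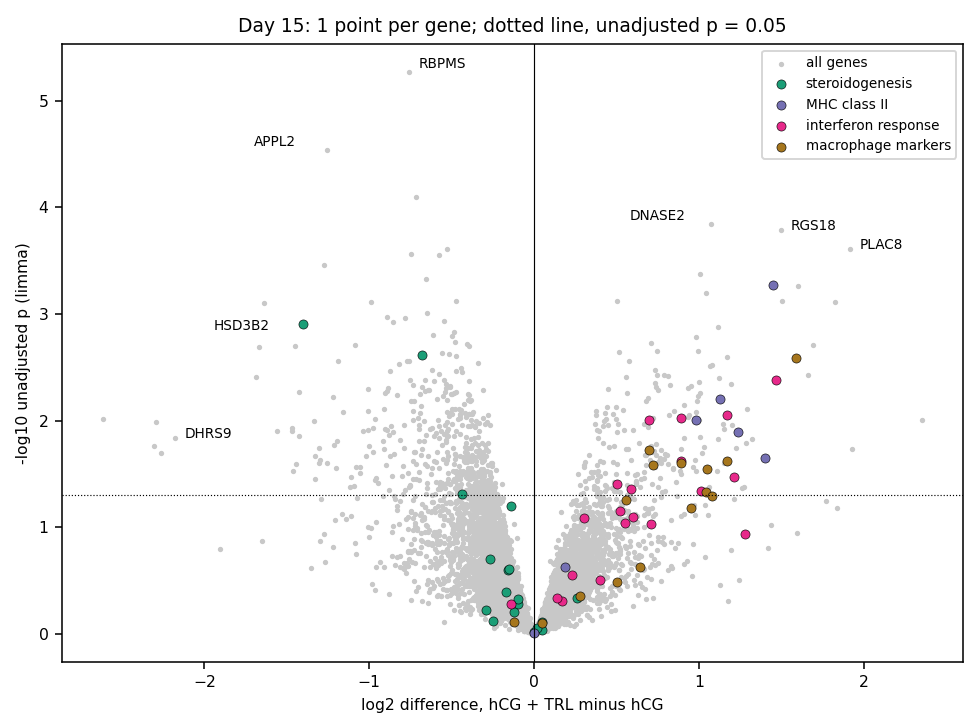
Each point is a gene, with the log2 difference (hCG + TRL minus hCG, day 15) on the x axis and the -log10 of the unadjusted limma p on the y axis. Points of the interferon, MHC class II and macrophage lists lie mostly right of 0, HSD3B2 stands apart on the left among the steroidogenesis genes, and none of the genes reached an adjusted p under 0.05.

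Among steroid pathway genes, HSD3B2, which encodes the enzyme that trilostane inhibits, had the largest estimated difference. Its level was 10.57, 10.37, 11.82 and 10.97 in the TRL samples, against 12.51, 12.06, 12.90 and 11.88 in the hCG samples. Every TRL sample lay below every hCG sample, although the margin between the nearest of them was small. The difference was -1.40 ± 0.39 (SE), which is 0.378 times the hCG level, with a 95% interval from -2.20 to -0.61 and an adjusted p of 0.546 (limma). Between the single arrays of set 3 the difference was -2.07, without the array set term -1.34, and without the near-identical replicate 4 arrays -1.09. With the untreated arrays left out it was -2.86, but the median SE per probe set was then 0.45, against 0.19 with them. In whole tissue, fewer cells of a type and less RNA per cell cannot be told apart, which holds for every value here. The probe set may also read the close relative HSD3B1, which was not told apart here.

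HSD11B1, which regenerates active glucocorticoid from cortisone, had the next lowest unadjusted p of the steroidogenesis list. Its level was 11.35, 11.83, 11.43 and 11.73 with TRL, against 12.26, 11.97, 12.52 and 12.32 with hCG alone, again with no overlap. The difference was -0.68 ± 0.20 (adjusted p = 0.617), and it was -1.01 within set 3 and -0.59 without the near-identical arrays. FDXR, ferredoxin reductase, the start of the electron chain that feeds mitochondrial steroid enzymes, had 9.84, 10.23, 10.19 and 10.32 with TRL and 10.70, 10.81, 10.25 and 10.60 with hCG. Its groups overlapped at a single hCG sample, and the difference of -0.44 ± 0.21 was 0.40 within set 3, -0.24 without the array set term and -0.70 without the near-identical arrays. These genes, like the other list members quoted with values below, were named after their values were seen, as those with the lowest unadjusted p in their list or with a role of interest.

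The rest of the pathway showed small estimates or wide intervals. STAR, which carries cholesterol into mitochondria, was at 14.53, 14.68, 14.72 and 14.68 with TRL and at 14.83, 14.72, 14.78 and 14.82 with hCG. Its groups did not overlap beyond rounding, but the difference was only -0.14 ± 0.07 (95% interval -0.28 to 0.01). CYP17A1, the enzyme that leads to androgens, had 10.79, 10.22, 10.17 and 10.33 with TRL against 10.78, 10.60, 10.23 and 11.03 with hCG, a difference of -0.29 ± 0.53 (95% interval -1.38 to 0.81). The samples of CYP17A1 were intermixed. CYP19A1, aromatase, which makes oestrogen, had 13.65, 13.54, 13.28 and 13.50 with TRL against 13.80, 12.63, 13.69 and 13.63 with hCG, a difference of 0.05 ± 0.55 (95% interval -1.08 to 1.18). Differences of close to 1 log2 unit in either direction thus lay within or near the intervals of both genes. Without the near-identical arrays STAR differed by -0.15, CYP17A1 by -0.52 and CYP19A1 by 0.20. Of 18 steroidogenesis genes measured, 0 passed, 3 were lower and 0 higher at an unadjusted p under 0.05, and 5 lay above 0 (median -0.14). Within set 3 the list's median was 0.03.

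**Figure D2:**
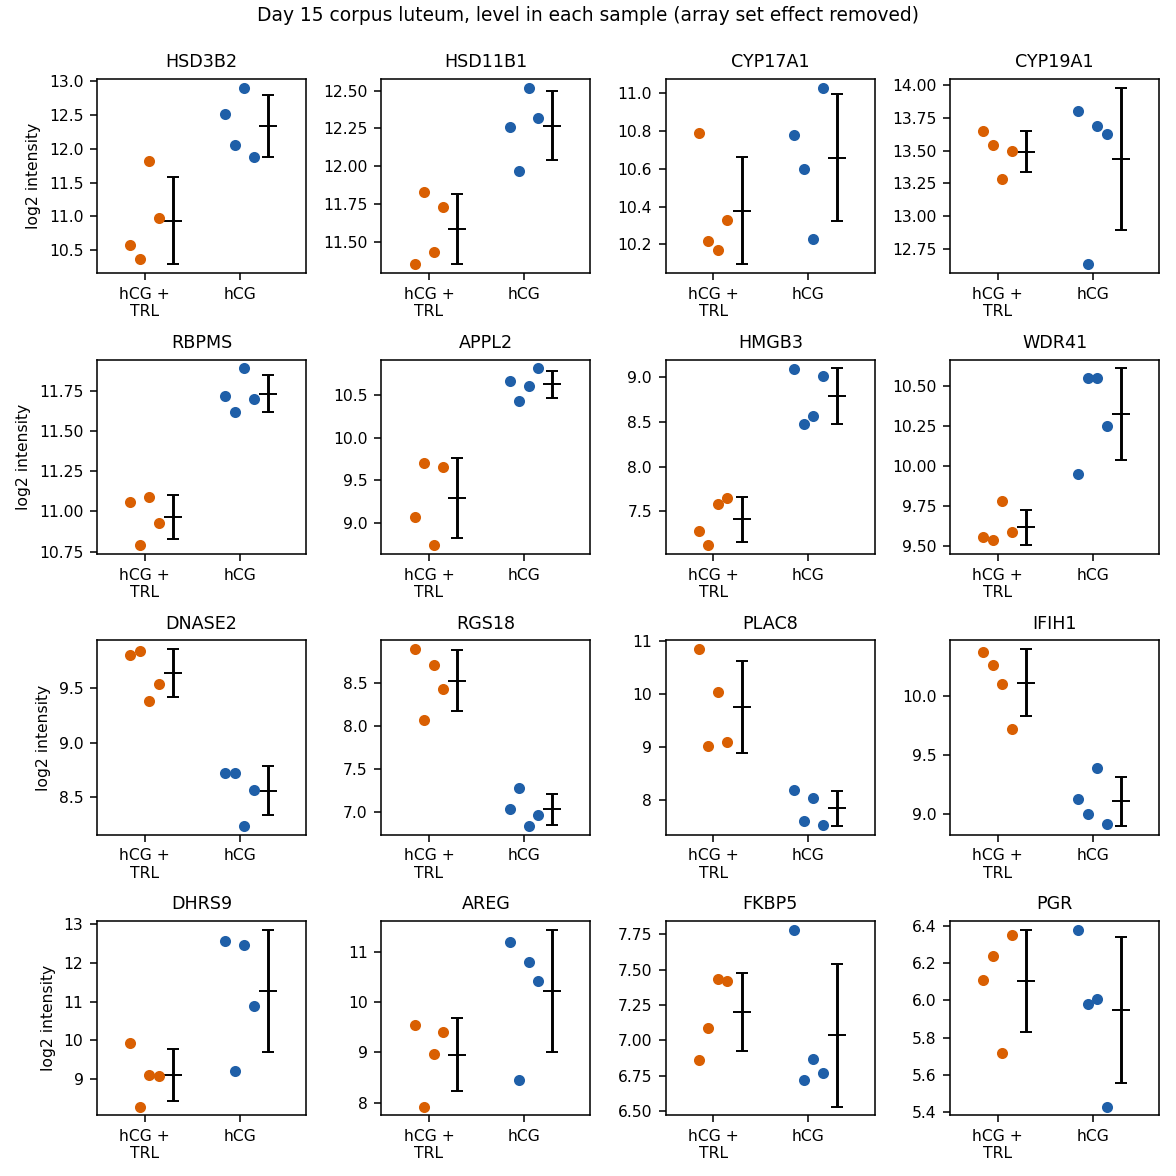
Log2 intensity of 16 genes in each of the 4 TRL samples (orange, left) and the 4 hCG samples (blue, right) of day 15, after removal of the array set effect; black marks give the mean and SD, and each panel has its own scale. The samples do not overlap for HSD3B2, HSD11B1 and the 8 genes from RBPMS to IFIH1, and they overlap for CYP17A1, CYP19A1, DHRS9, AREG, FKBP5 and PGR.

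FKBP5 and PGR, both tied to progesterone action, had differences within their spread, but their intervals were wide. FKBP5, a chaperone that progesterone and glucocorticoid receptors induce in many tissues, was at 6.86, 7.09, 7.43 and 7.42 with TRL and at 7.78, 6.72, 6.87 and 6.77 with hCG. The groups overlapped, and the difference was 0.16 ± 0.44 (95% interval -0.73 to 1.06, adjusted p = 0.977), or -0.01 without the near-identical replicate 4 arrays. PGR had 6.11, 6.24, 5.72 and 6.35 with TRL against 6.38, 5.98, 6.01 and 5.43 with hCG, so most of its values lay at or under the low value line. Its difference was 0.16 ± 0.31 (95% interval -0.48 to 0.79, adjusted p = 0.969), and 0.11 without those arrays.

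Among 26 progestin and glucocorticoid response genes, 7 were lower and 0 higher at an unadjusted p under 0.05, against 4.49% and 2.01% of all genes, and 11 lay above 0 (median -0.10). DUSP1, a phosphatase that restrains MAP kinases and responds to both steroids and stress, lay between 11.82 and 12.08 with TRL, against 13.14, 12.43, 12.42 and 12.56 with hCG. Its groups did not overlap, and the difference was -0.68 ± 0.22 (adjusted p = 0.644). KLF15, a transcription factor induced by glucocorticoid, had 7.75, 8.16, 8.05 and 8.45 with TRL against 9.35, 8.77, 8.39 and 8.63 with hCG, a difference of -0.69 ± 0.24. ZBTB16, a zinc finger factor used as a marker of progestin and glucocorticoid action, had 6.23, 7.44, 6.13 and 7.51 with TRL against 8.26, 7.87, 7.46 and 8.35 with hCG, a difference of -1.16 ± 0.41. TRL replicate 4 was the highest TRL sample for all 3 genes and lay closest to the hCG samples. With TRL replicate 4 alone left out, the differences were -0.75 for DUSP1, -0.88 for KLF15 and -1.53 for ZBTB16, and with hCG replicates 3 and 5 left out -0.83, -0.95 and -1.51. Without both near-identical arrays they were -0.85, -1.03 and -1.69, and without the array set term -0.57, -0.55 and -0.67. With the untreated arrays left out they were -0.12, 0.33 and 0.19. Within set 3 they were -0.07, 0.26 and 0.43, and the list's median there was 0.16.

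The EGF family holds growth factors that gonadotropins induce in the follicle, and its members differed among themselves. AREG, amphiregulin, had 9.54, 7.93, 8.97 and 9.40 with TRL against 11.19, 8.46, 10.80 and 10.42 with hCG. An hCG sample, replicate 2, fell among the TRL samples, and the difference was -1.26 ± 0.53 (adjusted p = 0.782). HBEGF, a heparin-binding ligand of the same receptor, had 7.99, 7.40, 7.97 and 7.93 with TRL against 8.46, 8.47, 9.15 and 9.29 with hCG, with no overlap and a difference of -1.02 ± 0.42 (adjusted p = 0.758). Within set 3 the values were -1.45 for AREG and -0.98 for HBEGF, without the near-identical arrays -1.07 and -0.88, and without the array set term -1.01 and -0.58. With the untreated arrays left out they were -2.76 and -1.81. BTC, betacellulin, another such ligand, had a difference of 0.24 ± 0.39, and 0.89 within set 3. Of 7 EGF family genes measured these 2 were lower at an unadjusted p under 0.05, 3 lay above 0, and the median was -0.01. The progestin response list holds AREG as well.

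The genes with the lowest p in the whole comparison were lower with TRL. RBPMS, an RNA-binding protein of contractile and other cells, was at 11.06, 10.79, 11.09 and 10.93 with TRL against 11.72, 11.62, 11.89 and 11.70 with hCG. The groups were clearly apart, and the difference was -0.76 ± 0.13 (95% interval -1.04 to -0.49, adjusted p = 0.155, limma). Its second probe set gave -0.87 ± 0.17. APPL2, an endosomal adaptor protein, had 9.07, 9.70, 8.74 and 9.66 with TRL against 10.66, 10.43, 10.60 and 10.81 with hCG, a difference of -1.33 ± 0.25 (adjusted p = 0.166), and its other probe set gave -1.25 ± 0.25. HMGB3, a chromatin protein, had 7.28, 7.12, 7.58 and 7.65 with TRL against 9.09, 8.48, 8.57 and 9.02 with hCG. That difference was -1.38 ± 0.27 (adjusted p = 0.166, limma), or 0.384 times the hCG level. The other 3 probe sets of HMGB3 gave -0.79 ± 0.21, -1.59 ± 0.74 and -0.71 ± 0.37. All 3 were brighter on average than the one quoted, and the brightest was that at -0.79.

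RBPMS, APPL2 and HMGB3 kept their direction in every way of joining the array sets that was tried. Within set 3 they stood at -0.98, -0.85 and -1.22, and without the array set term at -0.55, -1.08 and -1.18. Leaving out the near-identical replicate 4 arrays gave -0.66, -1.47 and -1.59, and leaving out the untreated arrays -1.16, -1.28 and -0.81. In some alternatives they passed: with hCG replicates 3 and 5 counted as 2 samples, RBPMS had an adjusted p of 0.00923 and APPL2 of 0.0332. Without hCG replicate 5 RBPMS had 0.0277 and HMGB3 0.0317, and without untreated replicate 8 RBPMS had 0.0126. Without the array set term APPL2 had 0.0403 and WDR41, described next, 0.0332.

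The other 3 leading lower genes were WDR41, SNCB and KCNMB4. WDR41, a WD repeat protein of a lysosome-associated complex, had 9.56, 9.54, 9.78 and 9.59 with TRL against 9.95, 10.55, 10.55 and 10.25 with hCG, with no overlap. The difference was -0.71 ± 0.16 (adjusted p = 0.36, limma), and it was -0.95 within set 3, -0.57 without the near-identical arrays and -1.30 with the untreated arrays left out. A second, brighter probe set of WDR41 gave -0.58 ± 0.18. SNCB, beta-synuclein, had 6.82, 6.57, 6.78 and 6.90 with TRL against 7.50, 7.43, 7.27 and 7.71 with hCG, a difference of -0.71 ± 0.15. SNCB was at -0.30 without the array set term, -0.88 without the near-identical arrays and -0.18 with the untreated arrays left out. For SNCB the single arrays of set 3 differed by 0.10, and its fitted difference between sets 2 and 1 was 0.43, so its size depended on the join. KCNMB4, a potassium channel subunit, had 5.22, 4.96, 5.02 and 5.11 with TRL against 6.00, 5.93, 6.02 and 5.82 with hCG, all under the low value line. Its other probe sets, both brighter on average, gave -0.37 ± 0.17 and 0.14 ± 0.14, so the probe sets of KCNMB4 disagreed in direction. The leading one was at -1.05 within set 3 and -0.58 without the array set term. It was at -0.83 without the near-identical arrays and -1.07 with the untreated arrays left out.

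Other genes with lower estimates belonged to several roles. DHRS9, a dehydrogenase that acts on retinol and on steroids, had 9.94, 8.29, 9.10 and 9.07 with TRL against 12.56, 9.20, 12.46 and 10.90 with hCG. The hCG samples spread over 3 log2 units and replicate 2 lay within the TRL samples, so a difference as large as -2.18 ± 0.84 had an adjusted p of 0.709. HTRA3, a serine protease, had 9.91, 8.46, 9.59 and 9.40 with TRL against 11.02, 9.31, 11.79 and 10.58 with hCG, a difference of -1.33 ± 0.60, with hCG replicate 2 again the lowest hCG sample. FST, follistatin, which binds activin, had 8.33, 8.69, 8.72 and 8.82 with TRL against 9.55, 9.57, 9.65 and 9.82 with hCG. The groups of FST were well apart, and the difference was -1.01 ± 0.35 (adjusted p = 0.675). RGS4, which shortens G protein signals, had a difference of -1.56 ± 0.58, HK2, hexokinase 2 of glycolysis, -0.87 ± 0.27, and GCLC, of glutathione synthesis, -0.68 ± 0.28. Within set 3 the values were -3.98 for DHRS9, -2.43 for HTRA3, -0.65 for FST, -1.19 for RGS4, -0.67 for HK2 and -0.85 for GCLC. The same genes, without the array set term, were at -1.60, -0.78, -0.65, -1.0, -0.35 and -0.31, smaller by over 1.5 times for all but DHRS9. Without the near-identical arrays they were at -1.48, -0.70, -1.07, -1.44, -0.95 and -0.49. With the untreated arrays left out they were at -5.24, -4.21, -1.0, -2.1, -0.59 and -1.44, in the same order. AMHR2, the receptor of anti-Mullerian hormone, had -0.70 ± 0.26 in the fit, -0.06 within set 3 and -1.0 without the near-identical arrays.

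On the side of higher levels, DNASE2 and RGS18 led. DNASE2, the lysosomal nuclease that degrades DNA of engulfed cells, had 9.80, 9.84, 9.38 and 9.54 with TRL against 8.72, 8.72, 8.24 and 8.57 with hCG. No samples overlapped, and the difference was 1.08 ± 0.24, which is 2.11 times the hCG level (adjusted p = 0.36). A further probe set of DNASE2 gave 0.70 ± 0.29. RGS18, a regulator of G protein signalling typical of blood cells, had 8.89, 8.07, 8.71 and 8.43 with TRL against 7.03, 7.28, 6.84 and 6.97 with hCG, a difference of 1.50 ± 0.34 (adjusted p = 0.36). Within set 3 DNASE2 differed by 1.24 and RGS18 by 1.20, without the near-identical arrays by 0.92 and 1.42, and without the array set term by 1.04 (adjusted p = 0.0403) and 0.92 (adjusted p = 0.382). Leaving out the untreated arrays gave 1.90 and 1.98.

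The other 4 leading higher genes are linked to immune cells or to interferon. PLAC8, found in myeloid and lymphoid cells, had 10.85, 9.01, 10.04 and 9.09 with TRL against 8.19, 7.60, 8.03 and 7.51 with hCG, a difference of 1.91 ± 0.45 (adjusted p = 0.378). IFIH1, a sensor of double-stranded RNA, had 10.37, 10.26, 10.10 and 9.72 with TRL against 9.13, 9.00, 9.39 and 8.91 with hCG, a difference of 1.01 ± 0.25 (adjusted p = 0.42). XAF1, an interferon-induced regulator of cell death, had 10.43, 10.51, 9.93 and 9.90 with TRL against 8.25, 9.37, 8.97 and 7.77 with hCG, a difference of 1.60 ± 0.41 (adjusted p = 0.452). With the array set effect removed, the samples of PLAC8, IFIH1 and XAF1 did not overlap. Before its removal they lay closer: the TRL array of set 3 had 7.83, 9.08 and 8.33, in that order. The TRL arrays of set 2 then averaged 9.09, 9.70 and 8.96, and the hCG arrays of set 1 averaged 7.67, 9.03 and 8.37. MAMU-DRA, the alpha chain of the macaque MHC class II molecule DR, had 13.67, 12.95, 13.94 and 12.76 with TRL against 11.40, 11.61, 12.32 and 12.13 with hCG, a difference of 1.46 ± 0.37 (adjusted p = 0.452), and its other probe sets gave 1.45 ± 0.37 and 1.63 ± 0.45. Within set 3, where the arrays compared directly are 1 against 1, the differences were 0.40 for PLAC8, 0.01 for IFIH1, 0.05 for XAF1 and 0.10 for MAMU-DRA. With no array set term they were 1.10, 0.52, 0.41 and 0.94, and without the near-identical arrays 2.25, 1.30, 1.92 and 1.92. Leaving out the untreated arrays gave 1.40, 0.27, 0.63 and 0.28.

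The immune gene lists showed the same split between the joined sets and set 3. Of 7 MHC class II genes, which present antigen, 5 were higher at an unadjusted p under 0.05 (MAMU-DRA, CTSS, CD74, MAMU-DMA and MAMU-DQA1) and 6 lay above 0, with a median of 1.13. The exception was CIITA, the master regulator of the class, at 0.00. CTSS, the protease that trims the invariant chain, had 10.88, 10.41, 11.33 and 10.30 with TRL against 9.30, 9.84, 10.01 and 9.26 with hCG, a difference of 1.13 ± 0.38. CD74, the invariant chain itself, differed by 0.98 ± 0.35 and MAMU-DMA, which loads peptides, by 1.24 ± 0.47. Within set 3 these 3 genes were at -0.55, 0.16 and -0.05, without the array set term at 0.46, 1.05 and 0.57, and without the near-identical arrays at 1.51, 1.42 and 1.57. The list's mean level was 10.41, 9.89, 10.82 and 9.80 in the TRL samples, against 9.10, 9.15, 9.58 and 9.44 in the hCG samples. TRL replicate 4, the only TRL array in set 3, was the lowest of the TRL samples.

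Macrophage markers behaved likewise: 7 of 15 were higher at an unadjusted p under 0.05, 14 lay above 0, CD86 being the exception, and the median was 0.72. LYZ, lysozyme, had 11.51, 11.22, 12.75 and 11.63 with TRL against 10.22, 10.76, 9.43 and 10.34 with hCG, a difference of 1.59 ± 0.48 (adjusted p = 0.617). The groups of LYZ did not overlap, and its difference was 2.29 within set 3 and 1.19 without the near-identical arrays. CSF1R, the receptor that macrophages need to survive, had 10.04, 9.80, 10.29 and 9.36 with TRL against 9.01, 8.61, 9.35 and 8.97 with hCG, a difference of 0.89 ± 0.37 that was -0.61 within set 3, 0.55 without the array set term and 1.27 without the near-identical arrays. Across the list the mean level ranged from 9.69 to 10.44 with TRL, against 9.24 to 9.66 with hCG, and 14 of the 15 markers were above the low value line in every sample of each group. The part of macrophage content in the immune differences was not tested. PTPRC, the pan-leukocyte marker CD45, differed by 1.01 ± 0.33, but by -0.50 within set 3, 0.36 without the array set term and 1.31 without the near-identical arrays. Lymphocyte markers as a list were less one-sided, with 2 of 10 higher at an unadjusted p under 0.05 (PTPRC and CD4), 7 above 0 and a median of 0.09, or -0.35 within set 3.

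Complement genes had 5 of 11 higher at an unadjusted p under 0.05 (C1QB, C1QC, CFB, CFI and CFD) and 10 above 0, CD55 being the exception, with a median of 0.85. CFI, the protease that inactivates C3b, had 10.19, 9.25, 10.41 and 9.51 with TRL against 9.26, 8.38, 8.67 and 8.74 with hCG, and CFD, factor D of the alternative pathway, had 10.00, 9.45, 9.51 and 9.67 with TRL against 8.88, 9.30, 8.46 and 8.58 with hCG. Their differences were 1.08 ± 0.33 and 0.85 ± 0.30, with 0.59 and 0.54 within set 3, 0.90 and 0.46 without the array set term, and 1.13 and 0.64 without the near-identical arrays. The C1q chain C1QC, which macrophages make, had 11.85, 11.18, 11.60 and 10.71 with TRL against 10.01, 9.92, 10.78 and 9.96 with hCG, so the groups overlapped slightly, and its difference of 1.17 ± 0.49 became -1.10 within set 3, 0.63 without the array set term and 1.73 without the near-identical arrays. C1QC is a member of the macrophage list too.

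Interferon response genes had 9 of 20 higher at an unadjusted p under 0.05 and 19 above 0, GBP2 being the exception, with a median of 0.60. The samples of IFI44, an interferon-induced cytosolic protein, overlapped slightly: it had 11.78, 12.65, 11.96 and 11.31 with TRL against 9.75, 11.18, 11.33 and 9.57 with hCG. MX1, an antiviral GTPase, had 11.19, 11.64, 10.53 and 10.49 with TRL against 9.58, 10.41, 10.13 and 9.04 with hCG, and its groups were just apart. Differences were 1.47 ± 0.47 for IFI44, 1.17 ± 0.41 for MX1 and 0.89 ± 0.32 for IRF7, the transcription factor that amplifies the response, and none passed (adjusted p from 0.644 to 0.675). CXCL10, an interferon-induced chemokine, had 9.59, 7.64, 10.06 and 7.81 with TRL against 7.55, 6.34, 7.25 and 6.24 with hCG, a difference of 1.93 ± 0.77. Within set 3 the values were -0.60 for IFI44, -0.20 for MX1, 0.18 for IRF7 and -0.36 for CXCL10. With no array set term they were 0.23, 0.46, 0.42 and 1.17, and without the near-identical arrays 2.18, 1.53, 1.06 and 2.49. CXCL10 belongs to the inflammation list, where no other of the 20 genes had an unadjusted p under 0.05 and the median was -0.02.

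How much of these immune differences the data hold depended on the array sets. Between sets 2 and 1 the untreated arrays themselves differed by -0.48 for the mean level of interferon genes, -0.48 for MHC class II, -0.29 for complement and -0.34 for macrophage markers. The untreated arrays of these sets bear different sample numbers, so differences between sets and between samples cannot be told apart in these values. The fit treats them as set differences and takes them out when it sets TRL arrays of set 2 against hCG arrays of set 1. Without the array set term the medians were 0.23 for interferon, 0.57 for MHC class II, 0.46 for complement and 0.27 for macrophage markers, all still above 0. With the arrays of set 3 left out they were 0.88, 1.58, 0.93 and 1.30, and without the near-identical replicate 4 arrays 0.95, 1.51, 0.69 and 1.19. Within set 3 they were -0.22, 0.07, -0.42 and -0.70, where the median of all genes was 0.04. When the untreated arrays were left out, so that set 3 alone joined the sets, they were 0.02, 0.12, 0.31 and 0.00. TRL replicate 4, which is the whole TRL side of set 3, is the array nearly identical to an R5020 array, and the part of array set in the immune differences cannot be told apart from that of this sample.

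**Figure D3:**
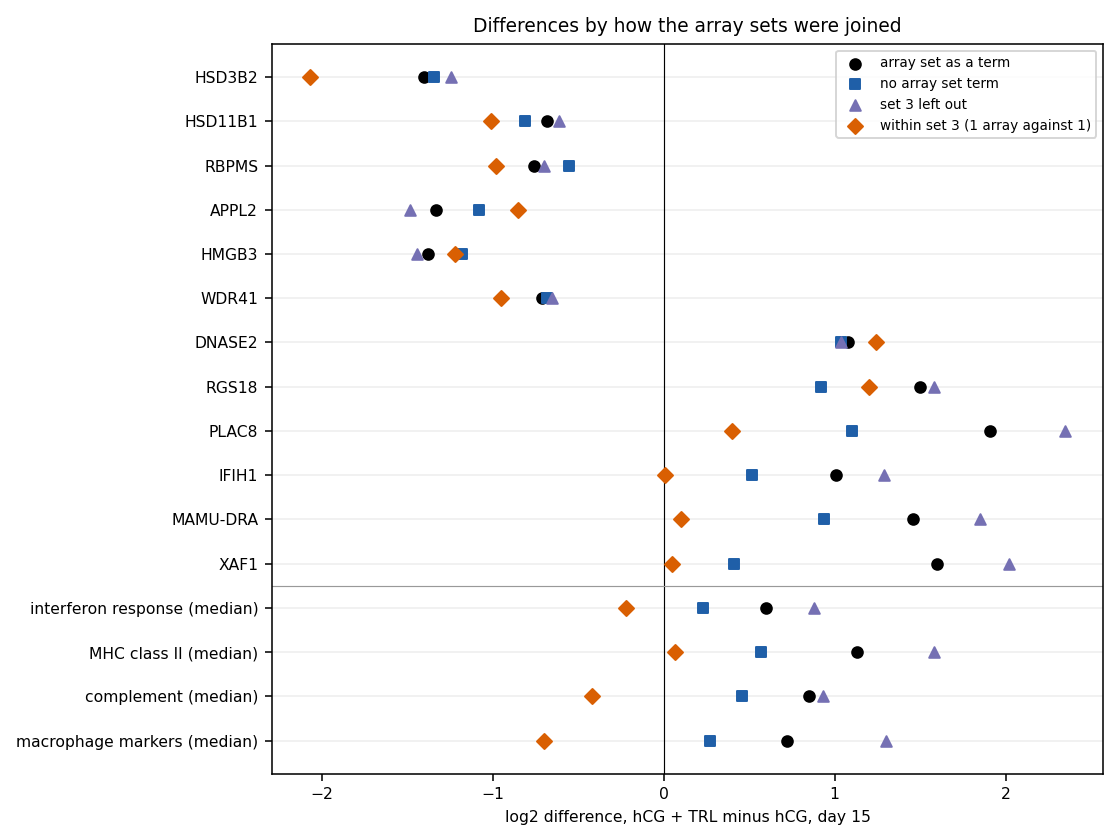
The log2 difference (hCG + TRL minus hCG, day 15) on the x axis for 12 genes and the medians of 4 immune lists, under the fit with array set as a term (black), without it (blue), without the arrays of set 3 (purple) and between the single arrays of set 3 (orange). The lower genes, DNASE2 and RGS18 keep their side of 0 and most of their size, whereas IFIH1, XAF1, MAMU-DRA and the immune lists lie near or below 0 within set 3.

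Among the tissue's structural cells, no list stood out to that degree. Endothelial markers had 0 of 13 at an unadjusted p under 0.05 in either direction, 6 above 0 and a median of -0.01, and the 22 angiogenesis genes had 0 with a median of -0.01. Pericyte and smooth muscle markers had 9 of 10 below 0, with NOTCH3 above it, 2 lower at an unadjusted p under 0.05 (TAGLN and SMTN), and a median of -0.30. TAGLN, a smooth muscle actin-binding protein, had 10.60, 10.60, 10.20 and 11.05 with TRL against 11.36, 11.77, 10.97 and 11.78 with hCG, and the groups overlapped slightly. Its difference was -0.85 ± 0.32, but 0.27 within set 3, and -1.29 without the near-identical arrays. Fibroblast markers had 10 of 12 below 0, with DCN and COL3A1 above it, and a median of -0.19. DCN, decorin, had 14.32, 14.08, 14.45 and 13.81 with TRL against 13.08, 13.16, 13.32 and 13.54 with hCG, a difference of 0.89 ± 0.39 with no overlap. It was 0.50 within set 3, 0.51 without the array set term and 1.04 without the near-identical arrays. COL1A1, type I collagen, differed by -0.72 ± 0.39 and COL6A3, type VI collagen, by -0.57 ± 0.27. COL1A1 turned to 0.14 within set 3 and 0.05 without the array set term, whereas COL6A3 was at -0.54 and -0.38, and without the near-identical arrays they were at -0.81 and -0.55. Of 28 matrix and protease genes, 3 were lower (HTRA3, COL6A3 and ADAMTS1, a metalloprotease, at -0.57 ± 0.27) and 1 higher (DCN) at an unadjusted p under 0.05, and the median was -0.17. ADAMTS1 was at -0.42 within set 3, -0.11 without the array set term and -0.52 without the near-identical arrays. Within set 3 the medians were -0.07 for pericyte, -0.44 for fibroblast and -0.37 for matrix genes.

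**Figure D4:**
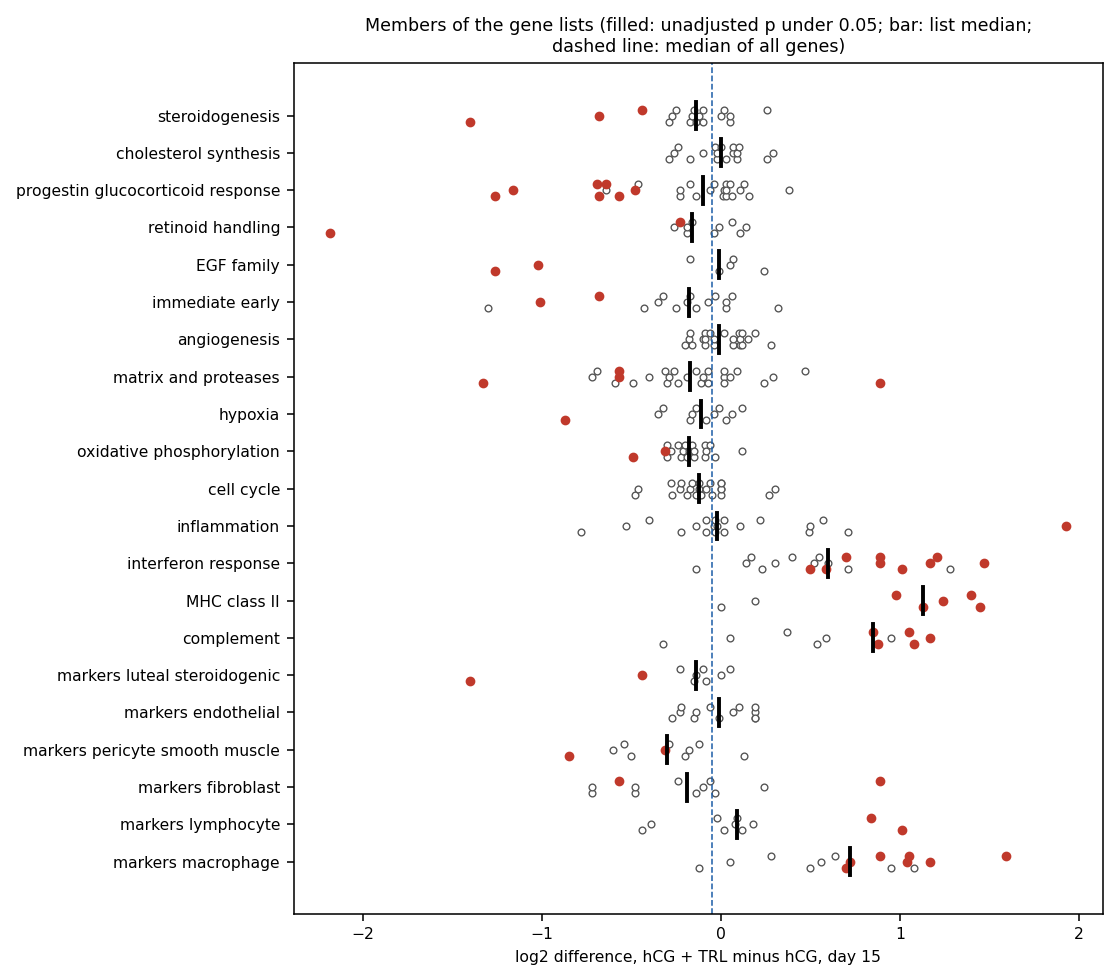
Each point is a gene of the list named at the left, at its log2 difference (hCG + TRL minus hCG, day 15) on the x axis; filled points have an unadjusted p under 0.05, black bars are list medians, and the dashed line is the median of all genes, -0.05. Interferon, MHC class II, complement and macrophage lists have medians from 0.60 to 1.13, and the other lists shown lie between -0.30 and 0.09.

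Metabolic and proliferative lists had medians near 0 in the fit, but some moved with the join of the array sets. Cholesterol synthesis genes, a list that includes the regulator SREBF2, had 0 of 17 at an unadjusted p under 0.05, 9 above 0 and a median of 0.00, with single values from -0.29 to 0.29. Their median was 0.58 within set 3 and 0.85 with the untreated arrays left out. Cell cycle genes had 0 of 23, 6 above 0 and a median of -0.12, which was -0.38 within set 3 and -0.74 with the untreated arrays left out. Oxidative phosphorylation genes had 19 of 20 below 0, COX7A2 being above it, though only by small amounts: the median was -0.18 and 2 were lower at an unadjusted p under 0.05, COX5A of complex IV and UQCRB of complex III, UQCRB at -0.49 ± 0.21. UQCRB was at -0.39 within set 3, -0.29 without the array set term and -0.52 without the near-identical arrays. Immediate early genes, which respond within minutes to stimulation and to handling of tissue, had 2 of 16 lower at an unadjusted p under 0.05, DUSP1 and NR4A1, and a median of -0.18. NR4A1, an orphan nuclear receptor that gonadotropins induce, had 7.90, 7.85, 7.58 and 7.98 with TRL against 9.49, 8.28, 8.47 and 9.08 with hCG, a difference of -1.01 ± 0.33. This difference was -0.10 within set 3, -0.55 without the array set term, -1.27 without the near-identical arrays and -0.07 with the untreated arrays left out. In the hypoxia list HK2 was the only 1 of 12 with an unadjusted p under 0.05, and the median was -0.11. Retinoid genes had 2 of 11 lower, DHRS9 and the retinol transporter STRA6, and a median of -0.16.

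The remaining lists had medians between -0.17 and 0.10, apart from 2 red cell markers at -0.64, whose mean level was 6.85 to 7.25 with TRL against 6.92 to 8.23 with hCG. Higher at an unadjusted p under 0.05 were CD36 among 13 genes of cholesterol uptake and storage, ATF6 among 17 chaperone and stress genes, SOD2 among 15 antioxidant genes and GATM among 7 granulosa markers. Lower were GCLC among the antioxidant genes, AKT2 among 18 insulin and IGF genes, 2 of 20 cAMP signalling genes (RGS4 and NR4A1), and 2 of 17 genes of the inhibin, activin and follistatin group, FST and AMHR2. The granulosa list holds FST and AMHR2 too, as its 2 lower genes. Steroid hormone receptors (10), prostaglandin genes (8), apoptosis and survival genes (16), neutrophil and mast cell markers (3) and surface epithelium markers (5) had 0 with an unadjusted p under 0.05 by limma in either direction. The 3 neutrophil and mast cell markers had a mean level of 6.44 to 8.29 with TRL against 7.11 to 8.41 with hCG.

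To ask whether 6 days and 1 day of TRL differ, the day 15 difference was set against the day 10 difference (hCG + TRL minus hCG) in the same fit. For no probe set did the difference between the effects pass: limma gave 0 of 28911 at an adjusted p under 0.05, with 0.999 as the lowest, and 945 at an unadjusted p under 0.05 (3.27%). Its median SE was 0.24, against 0.19 for the day 15 difference itself. The genes with the lowest unadjusted p are described with their values only.

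On the side below 0 were KCNK3, a background potassium channel, HMGB3, PRTFDC1, WDR41 and PFN2. KCNK3 averaged 10.96 ± 0.24 with TRL and 10.09 ± 0.22 with hCG alone on day 10 (SD, n = 4 each), and 9.88 ± 0.27 with TRL and 10.62 ± 0.27 with hCG alone on day 15 (SD, n = 4 each). The estimates thus had opposite signs, 0.86 on day 10 and -0.74 on day 15, and differed by -1.60 ± 0.33. HMGB3 had 0.22 on day 10 and differed by -1.60 ± 0.34, WDR41 had 0.11 and differed by -0.82 ± 0.20. For PRTFDC1, a protein related to purine salvage enzymes, the day 15 difference was -0.58 ± 0.14 and the day 10 one 0.21. PFN2, an actin-binding profilin, had -0.38 ± 0.14 and 0.30. Above 0 were POLR3E, IFIH1, AQP3, RIPK2 and TTLL6. AQP3, a water and glycerol channel, had 8.25, 8.25, 7.58 and 8.03 with TRL against 7.54, 7.30, 6.85 and 7.43 with hCG on day 15, a difference of 0.75 ± 0.22, beside -0.23 on day 10. Without the near-identical arrays the day 15 difference was 0.49 for AQP3, -0.51 for KCNK3, -0.49 for PRTFDC1, -0.47 for PFN2, 0.25 for POLR3E, 0.51 for RIPK2 and 1.13 for TTLL6. It was 1.13 without the array set term for AQP3, 0.57 for TTLL6 and 0.15 for RIPK2. IFIH1 had -0.25 on day 10 and differed by 1.25 ± 0.31, and the kinase RIPK2 had 0.50 ± 0.13 on day 15 and -0.08 on day 10. TTLL6, a tubulin-modifying enzyme, had 0.91 ± 0.31 and -0.39, and POLR3E, a subunit of RNA polymerase III, had 0.21 ± 0.14 and -0.53. HSD3B2 had 0.00 on day 10, where its mean was 13.80 in both groups, and the difference between the effects was -1.40 ± 0.49 (adjusted p = 0.999, limma).

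Set beside the other groups, the day 15 TRL levels of several genes were the lowest or highest of the 7 groups. Apart from HSD3B2, these genes were chosen for a low p between the day 15 groups. An extreme day 15 TRL mean is therefore partly given by that choice. HSD3B2 averaged 13.51 ± 0.21 (SD, n = 4) in day 10 tissue with TRL and R5020 and 13.36 ± 0.28 (SD, n = 8) in untreated day 10 tissue. On day 15 it averaged 11.40 ± 0.74 with TRL and R5020, 10.93 ± 0.64 with TRL and 12.34 ± 0.46 with hCG alone (SD, n = 4 each). The 2 day 15 groups with TRL overlapped with each other. APPL2 averaged 10.11 ± 0.28 with TRL and R5020 on day 15, 9.29 ± 0.47 with TRL and 10.63 ± 0.16 with hCG alone, all below the untreated 11.72 ± 0.18. For HMGB3 the day 15 means were 7.74 ± 0.54, 7.41 ± 0.25 and 8.79 ± 0.31 in the same groups, and untreated tissue had 8.98 ± 0.22. RBPMS had 11.19 ± 0.10, 10.97 ± 0.14 and 11.73 ± 0.11, with 11.24 ± 0.17 in untreated tissue, so its TRL level lay nearer to untreated tissue than its hCG level did. DNASE2 had 9.36 ± 0.25, 9.64 ± 0.22 and 8.56 ± 0.22, and 8.26 ± 0.33 untreated. RGS18 averaged 7.29 ± 0.16 with TRL and R5020, 8.53 ± 0.36 with TRL and 7.03 ± 0.18 with hCG alone. The groups with and without R5020 contain the near-identical replicate 4 arrays, and no difference between them was tested here.

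**Figure D5:**
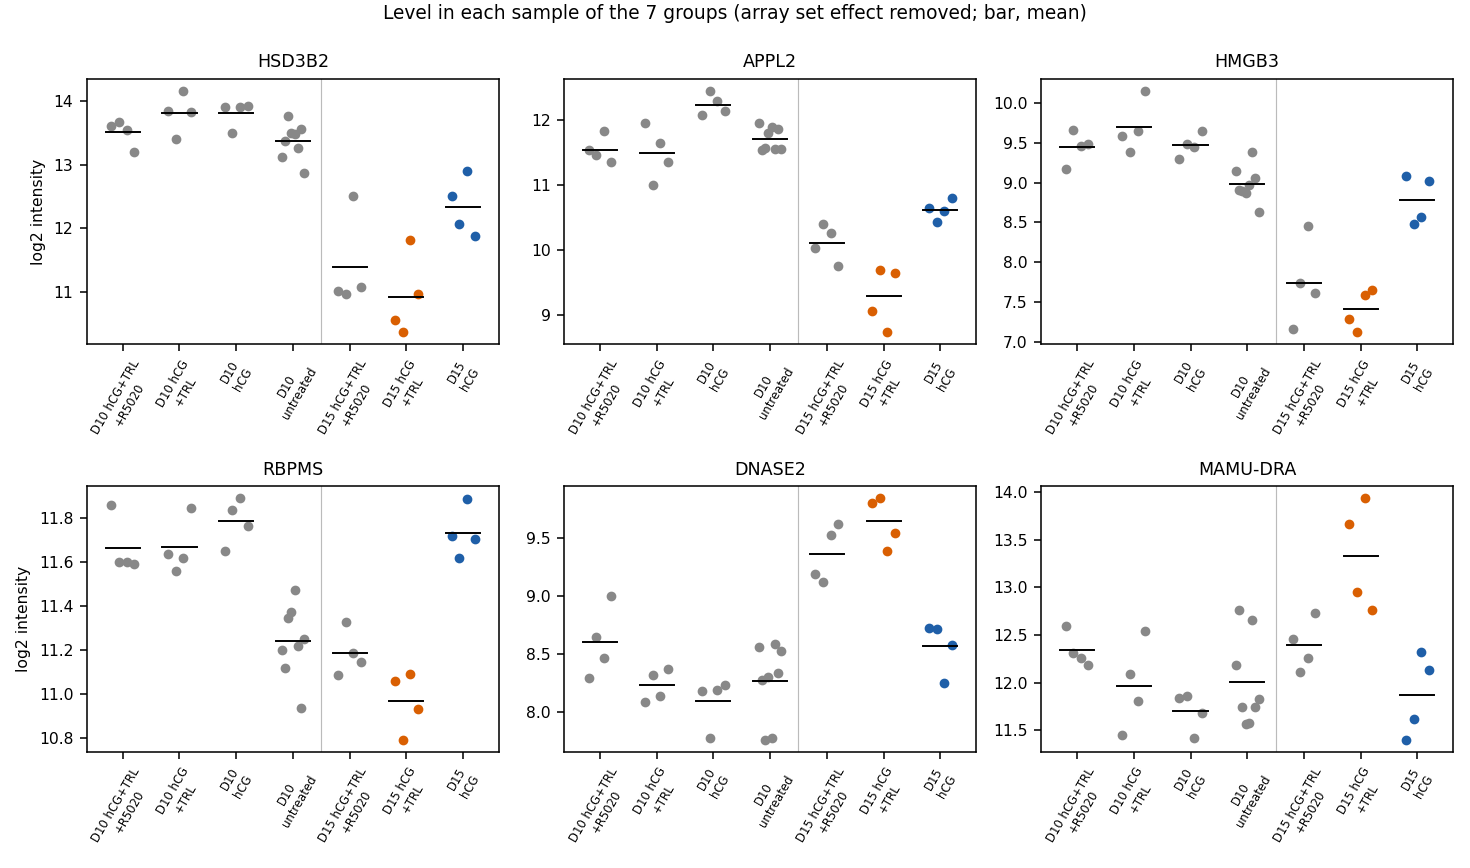
Log2 intensity of 6 genes in each sample of the 7 groups, after removal of the array set effect, with day 10 groups left of the grey line, day 15 TRL samples in orange, day 15 hCG samples in blue and a bar at each mean. The means of HSD3B2, APPL2, HMGB3 and RBPMS are lowest in day 15 tissue with TRL, and those of DNASE2 and MAMU-DRA are highest there. All but HSD3B2 were chosen for a low p between the day 15 groups.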

How the data were processed

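RNA of dissected luteal tissue was measured on 33 Affymetrix Rhesus Genome arrays. As deposited, each probe set has a log2 intensity for every array, and array medians run from 6.13 to 6.32. How background, probe summary and normalization were handled by the authors is not given in the sources used here. For arrays, their number limits the precision. Sequences and genome positions were not used, and no per-sample column was left unused.

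Of 52865 probe sets, 99 controls were left out, and those above 6.19, the median of all other values, in at least 4 arrays were kept (28911). Each array was centred on its median, since the medians spanned 0.183 against a limit of 0.1. Names came from the platform annotation: 17606 kept probe sets have 1 symbol, 240 several and 11065 none.

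Groups follow the labels, and array set the array names. The 32 samples were fitted in limma 3.58.1 (R 4.3.3) with terms for group and for array set, moderated by eBayes with its trend option on 23 residual degrees of freedom, and with hCG replicates 3 and 5 averaged together with their design terms. Tests were two-sided, with Benjamini-Hochberg adjustment over all kept probe sets at a threshold of 0.05. The contrast was hCG + TRL minus hCG on day 15, and that contrast minus the same on day 10. The script was tested on simulated data.

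The genes to be named were those that passed with no overlap between groups. Where none did, they were the 6 with the lowest p in each direction, whether or not the groups overlapped (5 for the difference of effects). To these were added 8 genes of steroid synthesis and response. Symbols that are locus, Ensembl or clone names were skipped. Genes of 34 lists (436 of 694 entries measured) were described by counts and medians, with no set test. Members and lists were chosen with earlier results of these data known. Alternatives were the array set term, the samples in the fit, averaging of replicates, normalization, centring, the filter, probe sets of a gene averaged, the trend, the replicate block and leaving out replicates, the near-identical arrays, set 3 or the untreated arrays. The last 2, leaving out hCG replicates 3 and 5 together, and the sample number as a block were chosen after seeing the data.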

Additional observations from a re-analysis of the deposited data

Results flagged for a closer look

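In 6 of 186 groups of 4 samples that were looked at, a single sample lay far from the others by Dixon's ratio, and chance alone picks out about 1 in 20 groups. CYP19A1 was at 12.63 in hCG replicate 2, below the other hCG samples. FKBP5 was at 7.78 in hCG replicate 1, above the others. HBEGF was at 7.40 in TRL replicate 2, the lowest TRL sample. C1QC was at 10.78 in the mean of hCG replicates 3 and 5, above the other hCG samples. The mean level of the retinoid list was 7.60 in TRL replicate 2, below the other TRL samples. Red cell markers had a mean level of 7.25 in TRL replicate 4, above the other TRL samples.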

How the results depend on the processing

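For the day 15 difference, the count of probe sets that passed under 31 alternative settings (limma, adjusted p under 0.05) stayed at 0 in both directions except as follows. Without the array set term 2 were higher (DNASE2, AQP3) and 6 lower (APPL2 and WDR41 with 2 probe sets each, VASP and 1 without a name). With hCG replicates 3 and 5 as 2 samples 3 were lower (RBPMS with 2 probe sets, APPL2), without the filter 1 was lower, without a name, and with the untreated arrays left out 1 was higher (ETV6). Leaving out 1 replicate gave 0 to 3 lower: 3 without hCG replicate 5 (RBPMS with 2 probe sets, HMGB3) and 1 without untreated replicate 8 (RBPMS). For the difference between days no setting gave any. At an unadjusted p under 0.05 there were 1697 as reported, 2257 without the array set term, 2370 without the near-identical arrays and 2967 without the filter. Without centring 50.1% of the differences lay above 0, against 45.9%. Of 69 gene results, 20 reversed in at least 1 setting. Without the array set term CYP19A1 was -0.38, FKBP5 -0.11, PGR -0.06 and COL1A1 0.05, and without the near-identical arrays FKBP5 was -0.01. With the untreated arrays left out, CYP19A1 was -0.59, CYP17A1 0.82, FDXR 0.44, KLF15 0.33, ZBTB16 0.19, AMHR2 0.12, IFI44 -0.80, CD74 -0.12, C1QC -0.41, TAGLN 0.44 and CSF1R -0.06. Within set 3, with no test, SNCB was 0.10, CYP19A1 -0.02, CYP17A1 0.13, FDXR 0.40, KLF15 0.26, ZBTB16 0.43, CXCL10 -0.36, IFI44 -0.60, MX1 -0.20, CTSS -0.55, MAMU-DMA -0.05, C1QC -1.10, TAGLN 0.27, COL1A1 0.14, CSF1R -0.61 and PTPRC -0.50. Leaving out 1 replicate moved CYP19A1 between -0.43 and 0.41 and FKBP5 between -0.09 and 0.36. List medians moved by more than the spread without the array set term (angiogenesis 0.09, matrix 0.00, interferon 0.23, MHC class II 0.57, complement 0.46, hypoxia 0.03, endothelial 0.25, pericyte -0.03, macrophage 0.27), without the near-identical arrays (interferon 0.95, MHC class II 1.51, hypoxia -0.04, macrophage 1.19), without set 3 (EGF family -0.22, interferon 0.88, MHC class II 1.58, macrophage 1.30), with the probe sets of a gene averaged (complement 0.59, hypoxia -0.03) and with replicates 3 and 5 as 2 samples (complement 0.60). With the untreated arrays left out they were -0.03 for steroidogenesis, 0.85 for cholesterol synthesis, 0.04 for progestin response, 0.29 for retinoid, 0.06 for angiogenesis, -0.56 for matrix, 0.17 for immediate early, 0.02 for interferon, 0.12 for MHC class II, 0.31 for complement, -0.74 for cell cycle, -0.36 for hypoxia, -0.37 for oxidative phosphorylation, -0.32 for endothelial, -0.62 for fibroblast, 0.00 for macrophage and -0.49 for lymphocyte lists, with a median SE per probe set of 0.45 against 0.19. Leaving out 1 replicate put the medians between -0.03 and 0.07 for angiogenesis, 0.50 and 1.01 for complement and 0.47 and 1.16 for macrophage markers. The cause of these changes was not tested. With the replicate number as a block (correlation 0.00066) 0 probe sets passed and 1698 had an unadjusted p under 0.05, and with the sample number as the block, chosen after seeing the data (correlation -0.018), 0 passed and 1660 had. What the fit left over in each sample, with group and array set taken out, was compared across probe sets. Between TRL and hCG samples of the same replicate number these residuals correlated at 0.10, -0.01, 0.29 and 0.12. For the 3 pairs that share a sample number they correlated at 0.10, 0.04 and 0.01. Between different replicate numbers the correlation reached 0.33. Neither number gave a consistent correlation, and so few pairs cannot exclude a pairing. The planned search of promoter letters was not run. Probe sets under the low value line, such as those of PGR and KCNMB4, carry little signal over background.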
